A study of Mus musculus with 8 samples.

Results

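Ptgds and 7 other genes of prostaglandin synthesis, reception and breakdown were followed in the hearts of female and male mice at 8 and 2 months of age. They are the genes whose current symbol begins with Ptgd, Ptge, Ptgf, Ptgi, Ptgr or Ptgs. This gave 8 genes on 9 probes among 6106 genes with a symbol on the array, and all 8 had enough measured arrays at both ages. No named probe had a symbol beginning with Ptgs, the cyclooxygenases, and of those beginning with Ptgd only Ptgds was present. Neither a cyclooxygenase nor a prostaglandin D receptor of this family was therefore followed. The family was chosen by its names, and Ptgds was selected on its measured log2 ratios of the pools at both ages, which reversed. These values are therefore a description and carry no test.

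The mice were C57BL/6, an inbred laboratory strain, and none had received a treatment or carried a modified gene per the labels. Total RNA of whole hearts was pooled from 6 animals per sex and age, which gave a female and a male pool at 8 months and a female and a male pool at 2 months. Every array hybridised labelled cDNA of 1 female pool together with that of its age-matched male pool. At each age 4 arrays were run, with the female pool in Cy3 on replicates 1 and 3 and in Cy5 on replicates 2 and 4. The 4 arrays of an age repeated the same pair of RNA pools. The SD given here is therefore the spread of technical arrays (n = 4 unless stated) and holds nothing of the spread between animals. All values are log2 ratios of female over male, so a value above 0 means more transcript in the female pool. The table has no intensities, so neither the level of a gene nor heart markers as a check of the tissue could be read from it. In whole hearts, a change in the number of cells of a type and a change in RNA per cell cannot be told apart.

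Prostaglandins are short-lived lipid signals made from arachidonic acid, which phospholipases release from membranes. Cyclooxygenases turn it into prostaglandin H, and a separate synthase makes each end product from that: prostaglandin D, E or F, prostacyclin or thromboxane. Each product acts on its own G protein-coupled receptors, and transporters and dehydrogenases end the signal. Ptgds encodes the lipocalin-type prostaglandin D synthase, which makes prostaglandin D and, as a secreted lipocalin, also carries small lipophilic molecules. In the heart, prostacyclin is known as a vasodilator that restrains platelets, and prostaglandin D synthase has been described in heart muscle and in vessel walls.

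The promoter of Ptgds is shown because this gene carries the main pattern. It is the RefSeq window of 300 bases in build GRCm38.p6, minus strand, chr2:25469700-25469999, with 250 bases before the transcript start and 50 after it. Capitals mark an AP-1 site, TGANTCA, and E-boxes, CANNTG.

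Ptgds: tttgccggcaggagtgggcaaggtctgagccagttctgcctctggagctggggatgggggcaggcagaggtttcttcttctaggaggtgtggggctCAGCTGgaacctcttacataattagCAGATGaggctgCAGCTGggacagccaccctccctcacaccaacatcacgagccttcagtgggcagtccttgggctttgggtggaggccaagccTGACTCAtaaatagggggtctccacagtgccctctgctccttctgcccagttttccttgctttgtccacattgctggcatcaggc

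Both strands were searched for 6 motifs. The AP-1 site began 35 bases before the start, and 7.81% of the 32851 RefSeq promoter windows of the same length held one. The 3 E-boxes began 154, 129 and 117 bases before the start, and 72.3% of windows held at least 1. None of the E-boxes was the clock form CACGTG, which 7.15% of windows held. The short TATA box TATAAA (13.6% of windows) was not in these letters. Nor were AGGTCA (16.3%), part of the oestrogen receptor site, and AGAACA (19.0%), part of the androgen and glucocorticoid receptor site. Full receptor sites and inexact matches were not searched. The matches describe the sequence, and no binding was measured.

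Ptgds was higher in the female pool at 8 months and lower in the female pool at 2 months, on every array. At 8 months its log2 ratio was 1.33, 2.08, 1.40 and 1.54 on replicates 1 to 4. At 2 months it was -0.82, -0.70, -0.75 and -0.61. The 2 ages did not overlap, with a gap between the lowest array at 8 months and the highest at 2 months that was wider than the range of either age. The mean was 1.59 ± 0.34 at 8 months, 3.0-fold more in the female pool, and -0.72 ± 0.09 at 2 months, 1.65-fold less. The difference, 8 months minus 2 months, was 2.31, or 4.95-fold.

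The reversal was seen in both dye orientations. With the female pool in Cy3 the mean was 1.36 at 8 months and -0.78 at 2 months, and with the female pool in Cy5 it was 1.81 and -0.66. Among the 5851 named genes with enough values, Ptgds stood at place 11 from the top at 8 months and at place 64 from the bottom at 2 months. Its age difference stood at place 4 from the top.

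**Figure D1:**
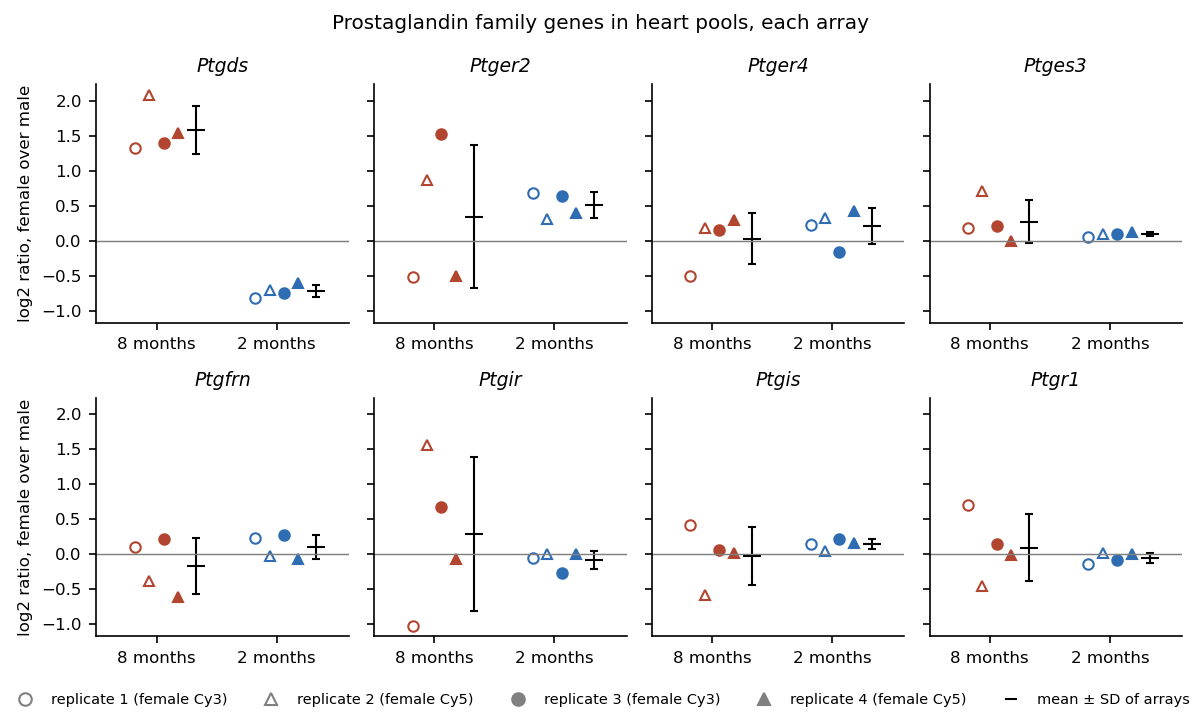
Log2 ratio of female over male (vertical axis) for the 8 prostaglandin family genes on each array, 8 months left of 2 months, with the mean and SD of the 4 arrays in black. Ptgds lies between 1.33 and 2.08 at 8 months and between -0.82 and -0.61 at 2 months, while the arrays of the 2 ages overlap for each of the other 7 genes.

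The arrays were not of equal quality, which touches every value at 8 months. On replicates 1 and 2 at 8 months the running median of all probes along the feature number (a running count of spots) had an SD of 0.51 and 0.82, and of 0.033 to 0.072 on the remaining 6 arrays. Replicates 1 and 2 at 8 months had opposite dye orientations and correlated at -0.45 over all rows. The other pairs of opposite orientation were also weakly correlated, at -0.10 to 0.27 at 8 months and -0.03 to 0.22 at 2 months. Pairs of the same orientation were at 0.05 and 0.17 at 8 months and at 0.78 and 0.84 at 2 months. Around the Ptgds probe the running median was -0.33 on replicate 1 and 1.05 on replicate 2 at 8 months, and -0.10 to 0.11 on the other arrays. Ptgds minus the running median was 1.65, 1.03, 1.38 and 1.55 on the 8-month arrays and -0.86, -0.61, -0.86 and -0.61 on the 2-month arrays. Replicates 3 and 4 alone gave 1.47 at 8 months, so the Ptgds ratio was nearly as large without the arrays that carry the trend. As a check of the labels, Xist and the Y-linked genes Eif2s3y and Kdm5d had the sign of their sex on all 8 arrays. The direction of the deposited ratio was itself inferred from sex-linked probes. These genes therefore check the arrays against each other and not the direction shared by all.

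**Figure D2:**
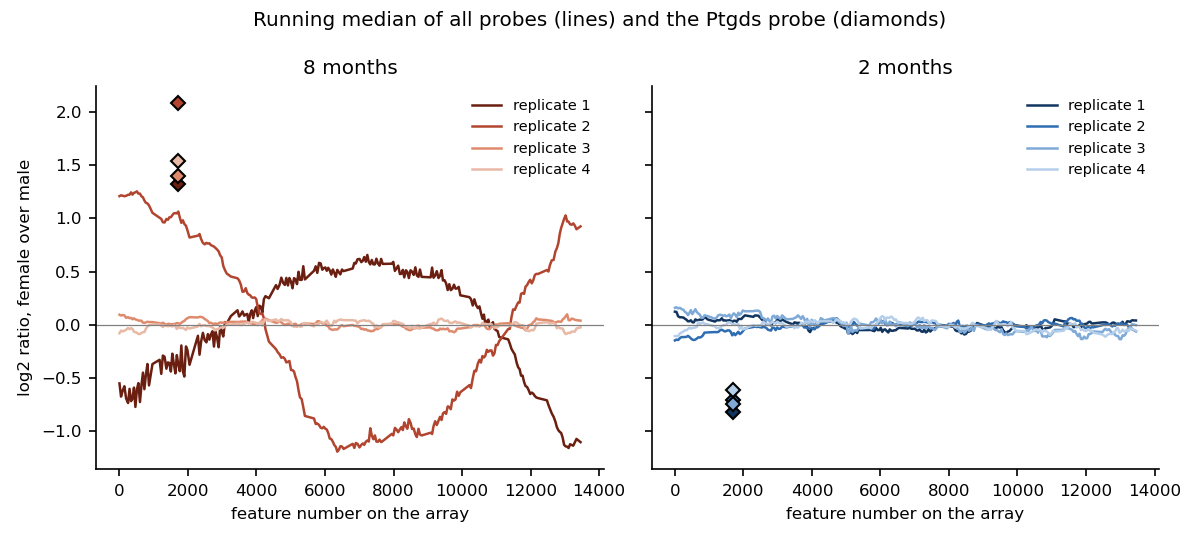
Running median of all probes along the feature number (lines) and the Ptgds probe (diamonds), in log2 female over male, for the 8-month arrays (left) and the 2-month arrays (right). Replicates 1 and 2 at 8 months bend in opposite directions, and the Ptgds diamonds of all 4 arrays lie above their lines at 8 months and below them at 2 months.

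The probe next to Ptgds in feature number, one without a gene symbol here, also had high ratios. It was at 2.51, 3.33, 2.64 and 2.89 at 8 months and at 1.70, 1.57, 1.41 and 0.87 at 2 months. Unlike Ptgds, it was higher in the female pool at both ages. Of the other 11 probes within 6 places, 10 had values, with means of 0.14 to 0.76 at 8 months and -0.12 to 0.39 at 2 months. Whether neighbouring spots affect each other was not tested.

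The other synthases of the family, Ptgis and Ptges3, had overlapping arrays at the 2 ages. Ptgis, prostacyclin synthase, was at -0.02 ± 0.42 at 8 months and 0.14 ± 0.07 at 2 months. Its 8-month arrays were at 0.42, -0.59, 0.06 and 0.01, and its 2-month arrays at 0.15, 0.05, 0.21 and 0.17. The female pool thus had slightly more Ptgis on all 4 arrays at 2 months, and the arrays at 8 months lay on both sides of 0.

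Ptges3, the co-chaperone p23 of Hsp90 that was also described as a cytosolic prostaglandin E synthase, was at 0.28 ± 0.31 at 8 months and 0.10 ± 0.03 at 2 months. It was at 0.18, 0.72, 0.21 and -0.01 on the 8-month arrays and at 0.06, 0.09, 0.10 and 0.13 on the 2-month arrays. Replicate 2, the highest, lies where that array's running median was 0.77. With the trend removed the 8-month value was 0.12, close to that at 2 months.

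Of the receptors, Ptger2 had the highest ratio at 2 months in the family. Ptger2 encodes the prostaglandin E receptor EP2, which raises cyclic AMP. It was at 0.69, 0.32, 0.65 and 0.40 on the 2-month arrays, all above 0, and at -0.52, 0.87, 1.53 and -0.51 on the 8-month arrays, which fell on both sides. Its means were 0.35 ± 1.03 at 8 months and 0.51 ± 0.18 at 2 months, so at 2 months it was 1.43-fold higher in the female pool and short of 1.5-fold.

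Ptger4, the EP4 receptor, which also raises cyclic AMP, was at 0.03 ± 0.37 at 8 months and 0.21 ± 0.26 at 2 months. It was positive on 3 of 4 arrays at each age. Ptgir, the prostacyclin receptor, was at -1.02, 1.57, 0.67 and -0.06 at 8 months, the widest range in the family. At 2 months it stayed between -0.26 and 0.01, with a mean of -0.08 ± 0.13.

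Ptgr1 encodes an enzyme that reduces oxidised prostaglandins and inactivates leukotriene B, and it was at 0.10 ± 0.47 at 8 months and -0.05 ± 0.08 at 2 months. Ptgfrn, an immunoglobulin superfamily protein known as a negative regulator of the prostaglandin F receptor, was at -0.17 ± 0.39 at 8 months and 0.11 ± 0.17 at 2 months. It was the only member with 2 probes. One probe was at -0.04 ± 0.41 at 8 months and -0.05 ± 0.15 at 2 months, and the other at -0.30 ± 0.64 and 0.26 ± 0.49. The second probe took opposite signs in the 2 dye orientations at 2 months, with 0.56 and 0.77 in Cy3 and -0.03 and -0.26 in Cy5.

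A fixed size rule was used in place of a test at a single age: at least 1.5-fold with 1 sign on all measured arrays. At 8 months 2.98% of the 7812 rows met it, 1.68% with the female pool higher and 1.31% with it lower. At 2 months 4.17% met it, 2.41% higher and 1.77% lower. Ptgds met it at both ages, and none of the other 7 family genes met it at either. At 2-fold, which 0.858% of rows met at 8 months and 1.11% at 2 months, Ptgds was past the rule at 8 months only. A single sign on all 4 arrays was held at 2 months by Ptgds, Ptger2, Ptges3 and Ptgis, as by 35.8% of rows, and at 8 months by Ptgds, as by 10.6%. The means of the other 7 genes ran from -0.17 to 0.35 at 8 months and from -0.08 to 0.51 at 2 months. Their age differences ran from -0.27 to 0.37, and all 7 had overlapping arrays, while 5.93% of rows had none overlapping. Of the 7, 3 were higher at 8 months than at 2 months, as were 47.1% of rows. The order of these 7 genes at 8 months cannot be told from their spread, which had an SD of 0.31 to 1.10. At 2 months the SD was 0.029 to 0.26, and the order ran from Ptger2 through Ptger4, Ptgis, Ptgfrn, Ptges3 and Ptgr1 to Ptgir. All arrays of Ptger2 lay above all those of Ptgis, Ptgfrn, Ptges3, Ptgr1 and Ptgir. Neighbours in this order overlapped, except that all arrays of Ptges3 lay above those of Ptgr1.

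The wider pathway was followed in 6 lists of related genes with 79 names, of which 40 were on the array and 39 had enough values. None of the 39 met the size rule at 8 or 2 months. Their median was 0.044 at 8 months and -0.005 at 2 months, against -0.032 and -0.016 over all rows. 20 were above 0 at 8 months and 19 at 2 months. Over both ages, with n = 2 pairs of pools, limma called 0 of the 39 (lowest adjusted p = 0.458) and 7 of 7812 rows, or 0.0896%. An unadjusted p below 0.05 was found for 10.4% of all rows and for 2 of the 39. The 2 genes were Alox12b, a lipoxygenase of the skin, at 0.38 ± 0.14 (SE), and Pla2g1b, the pancreatic phospholipase, at -0.37 ± 0.15 (SE). With the replicate number as a block, 0 of the 39 had an unadjusted p below 0.05. That fit took single arrays of the same pools as replicates, and it called 21 of 7812 rows. The fit on the 2 pairs of pools estimated the mean of the 2 ages, so opposite signs at the 2 ages cancelled. Alox5ap, at 0.53 at 8 months and -0.49 at 2 months, was at 0.02 in it. Its count of 0 of the 39 therefore cannot tell whether any of them reversed between the ages.

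**Figure D3:**
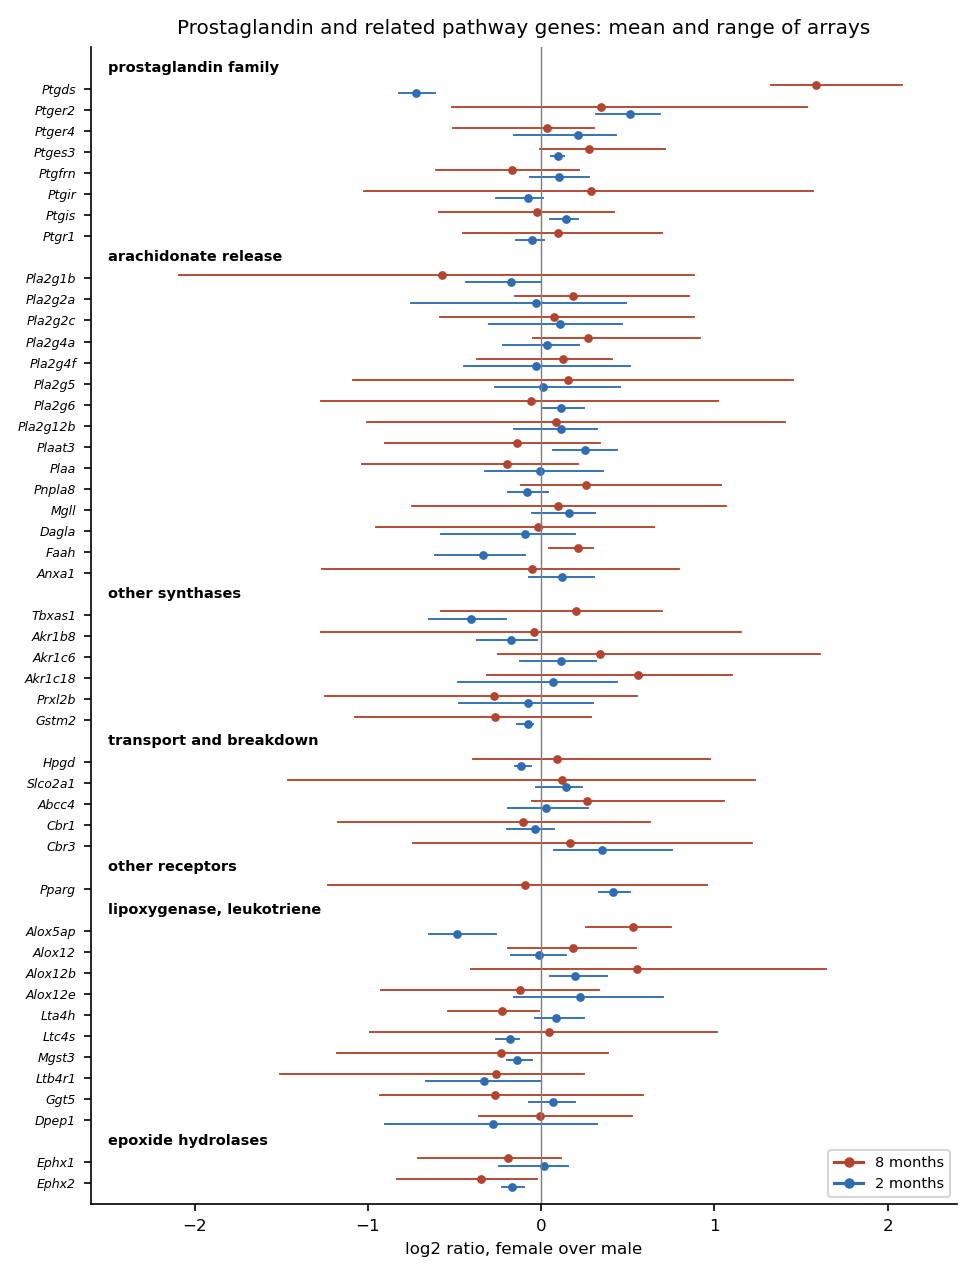
Mean (point) and range (line) of the arrays of each age for the 8 family genes and 39 related genes, in log2 female over male, with 8 months above 2 months for each gene. Ptgds and Alox5ap are the genes whose arrays lie wholly above 0 at 8 months and wholly below 0 at 2 months, together with Faah, which had 3 arrays at 8 months.

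Of the 15 genes of arachidonate release with enough values, 9 were above 0 at 8 months and 8 at 2 months. Pla2g4a, the cytosolic phospholipase that supplies most arachidonate for prostaglandins, was at 0.27 ± 0.45 at 8 months and 0.03 ± 0.20 at 2 months. Pla2g1b had the widest spread, from -2.09 to 0.88 at 8 months. Faah, which breaks down the endocannabinoid anandamide, was at 0.21 ± 0.13 at 8 months (n = 3 arrays) and -0.34 ± 0.26 at 2 months (n = 4 arrays). Its arrays did not overlap, although the difference of 0.55 was below 1.5-fold.

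Tbxas1, thromboxane synthase, was the other synthase furthest below 0 at 2 months, at -0.41 ± 0.23 with all 4 arrays negative. At 8 months it was at 0.70, -0.58, 0.11 and 0.56, a mean of 0.20 ± 0.57. The difference was 0.61, and the ages overlapped through replicate 2 at 8 months, an array with the trend, while the other 3 arrays at 8 months lay above all those at 2 months. Akr1c18, which reduces progesterone and can form prostaglandin F, was at 0.98, -0.31, 0.46 and 1.10 at 8 months and averaged 0.56 ± 0.64, against 0.07 ± 0.39 at 2 months. Its negative 8-month array was replicate 2. Without that replicate Akr1c18 was at 0.91, or 1.88-fold, and from replicates 3 and 4 alone at 0.78, or 1.72-fold, and met the size rule. Over all rows, 376 of 7896 and 260 of 7798 met it in these 2 settings.

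Of 5 genes of transport and breakdown, Cbr3, a carbonyl reductase, had the highest 2-month ratio, 0.35 ± 0.29, against 0.17 ± 0.80 at 8 months. Hpgd, the dehydrogenase that inactivates prostaglandins, was at 0.09 ± 0.62 at 8 months and -0.12 ± 0.04 at 2 months. Slco2a1, the prostaglandin uptake transporter, was at 0.12 ± 1.13 at 8 months and 0.14 ± 0.12 at 2 months. Without replicate 1 at 8 months it was at 0.59, or 1.51-fold. Pparg, a nuclear receptor that binds a dehydrated product of prostaglandin D and drives fat cell formation, was at -0.09 ± 0.90 at 8 months and 0.42 ± 0.08 at 2 months.

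In the leukotriene branch, Alox5ap was the 1 gene of the 39 with a gap between the ages of at least 1.5-fold and no overlap. Over all rows 3.29% had such a gap, so this count was near the background. Alox5ap encodes the protein that presents arachidonate to 5-lipoxygenase, and it is abundant in myeloid cells. It was at 0.75, 0.62, 0.26 and 0.50 on the 8-month arrays and at -0.65, -0.43, -0.62 and -0.26 on the 2-month arrays. As with Ptgds, all arrays were above 0 at 8 months and below 0 at 2 months. The mean was 0.53 ± 0.21 at 8 months and -0.49 ± 0.18 at 2 months, so each age alone fell short of 1.5-fold and the difference was 1.02. Without replicate 3 at 8 months it was at 0.65, or 1.57-fold.

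The remaining leukotriene genes showed no such gap. Ltc4s, leukotriene C synthase, was at 0.04 ± 0.83 at 8 months and -0.18 ± 0.06 at 2 months. Lta4h, which makes leukotriene B, was at -0.23 ± 0.22 at 8 months and 0.09 ± 0.12 at 2 months. Ltb4r1, a leukotriene B receptor, was at -0.26 ± 0.84 at 8 months and -0.33 ± 0.27 at 2 months, negative on all 4 of the 2-month arrays. Alox12b was at 0.55 ± 0.85 at 8 months and 0.20 ± 0.16 at 2 months, and at 0.80 at 8 months without replicate 1. Ephx2, the soluble epoxide hydrolase that breaks down vasodilator epoxides, was below 0 on all 8 arrays, at -0.35 ± 0.34 at 8 months and -0.17 ± 0.06 at 2 months.

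Ptgds also belongs to the lipocalins, small carriers of hydrophobic molecules, and 8 of 25 other listed lipocalins were on the array. All 8 were above 0 at 8 months, as were 45.0% of rows, and 7 of 8 at 2 months, as were 46.4% of rows. Obp1a, an odorant-binding protein, had means of opposite sign, 0.61 ± 1.27 at 8 months (n = 3 arrays) and -0.17 ± 0.23 at 2 months, but its arrays overlapped. No other lipocalin had opposite signs at the 2 ages. Lcn2, which binds bacterial iron carriers, was at 2.34, 3.37, 2.63 and 1.36 at 8 months and at -0.03, 0.09, -0.17 and 0.33 at 2 months. Its female pool was thus higher at 8 months, and its 2-month arrays lay around 0. Orm1 and Orm2, the acute phase orosomucoids, met the size rule at both ages with the female pool higher: Orm1 was at 0.77 ± 0.40 at 8 months and 1.23 ± 0.17 at 2 months. Orm2 was at 0.66 ± 0.44 at 8 months and 0.89 ± 0.21 at 2 months. Rbp4, the retinol carrier of plasma, was at 0.52 ± 0.45 at 8 months and 0.89 ± 0.40 at 2 months, and met the rule at 2 months.

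A reversal past the size rule at both ages was met by 8 of 7812 rows, or 0.102%. Beside Ptgds, 5 of these rows were higher in the female pool at 8 months and lower at 2 months: Ccl7, E230024E03Rik, Fcgr1, Lilrb4a and 1 probe without a symbol. The other 2 ran the opposite way. They were Bcl11b, a transcription factor of T cell development, at -0.74 at 8 months (-0.14 from replicates 3 and 4) and 1.79 at 2 months, and Foxn1, the transcription factor of thymic epithelium, at -0.63 and 0.91. Of these, Fcgr1, an Fc receptor, was at 0.92 ± 0.73 at 8 months and -0.80 ± 0.77 at 2 months. Lilrb4a, an inhibitory receptor of myeloid cells, was at 0.78 ± 0.76 and -0.68 ± 0.38. Ptgds had the smallest SD of the 8 rows at each age.

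**Figure D4:**
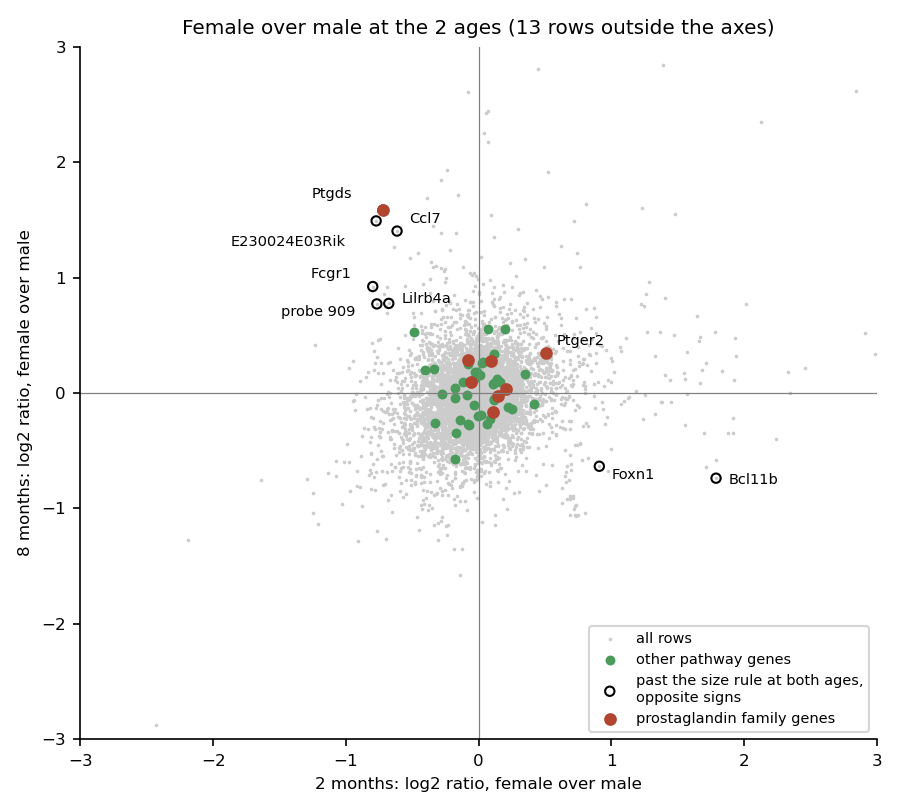
Mean log2 ratio of female over male at 8 months (vertical) against that at 2 months (horizontal) for 7812 rows, of which 13 lie outside the axes. Ptgds lies at the upper left with Ccl7, Fcgr1 and Lilrb4a, whereas the other family genes (red) and pathway genes (green) lie in the central cloud.

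The 5 named genes most like Ptgds over the 8 arrays were Ccl7, Arntl, Chil1, Thbs1 and Slc4a1, chosen among 179 genes with an age gap of at least 1.5-fold and no overlap. Likeness was the Pearson correlation over arrays, which here mainly reflects the 2 ages, since the arrays of 1 age share the same pools. Ccl7, a chemokine that draws monocytes, was closest, with r = 0.99. It was at 1.10, 1.83, 1.11 and 1.57 at 8 months and at -0.64, -0.48, -0.86 and -0.47 at 2 months.

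Arntl, a core transcription factor of the circadian clock, had r = 0.99 and was at 1.11 ± 0.22 at 8 months and -0.32 ± 0.14 at 2 months. Thbs1, the matrix protein thrombospondin, had r = 0.98 and was at 1.05 ± 0.34 at 8 months and -0.26 ± 0.21 at 2 months. Slc4a1, the anion exchanger of red cells, had r = 0.97 and was at 0.71 ± 0.08 at 8 months and -0.33 ± 0.12 at 2 months. In Ccl7, Arntl, Thbs1 and Slc4a1 all 8-month arrays were above 0 and all 2-month arrays below it. Chil1 had r = 0.98 with a larger ratio at 8 months, 4.21 ± 1.05, and a value near 0 at 2 months, -0.06 ± 0.17.

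The female over male ratio of all 8 macrophage markers measured was higher at 8 months than at 2 months, as that of Ptgds was. The same held for 47.1% of all rows. The markers' median difference was 0.79. These were 8 of 10 listed markers, and 7 of 8 were above 0 at 8 months while 8 of 8 were below 0 at 2 months. Over all rows 45.0% were above 0 at 8 months and 46.4% at 2 months. Those above 0 at 8 months and below 0 at 2 months were 20.6%. The markers' median was 0.27 at 8 months and -0.46 at 2 months, within -0.22 to 0.92 at 8 months and -0.80 to -0.25 at 2 months. From replicates 3 and 4 alone the 8-month median was 0.28, with 8 of 8 above 0.

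Adgre1, an adhesion receptor of the macrophage surface, was at 0.22 ± 0.13 at 8 months and -0.57 ± 0.10 at 2 months. Mrc1, the mannose receptor, was at 0.37 ± 0.18 at 8 months and -0.44 ± 0.12 at 2 months. C1qa, of the complement, was the exception at 8 months, at -0.22 ± 1.07. It was negative on replicates 2 and 4 and positive on replicates 1 and 3, that is, it followed the dye. At 2 months its mean of -0.80, the lowest of the markers, was split by dye too. It was at 0.02 with the female pool in Cy3 and at -1.62 in Cy5. Whether macrophage content has a part in the Ptgds ratio was not tested.

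**Figure D5:**
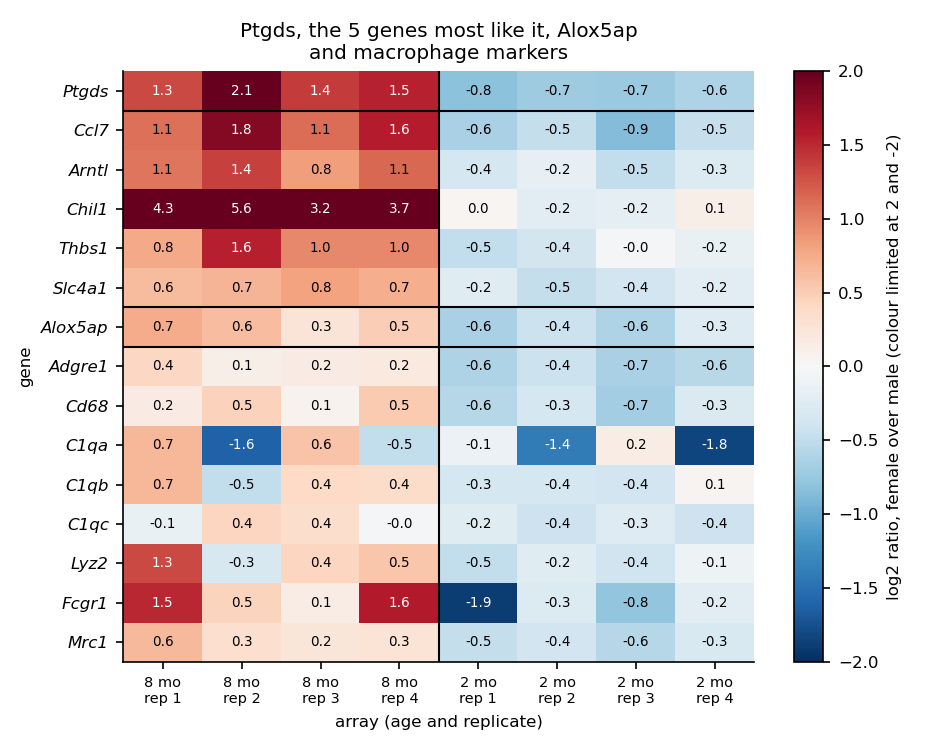
Log2 ratio of female over male on each array (columns, 8 months left of 2 months) for Ptgds, the 5 genes most like it, Alox5ap and 8 macrophage markers; the colour scale stops at 2 and -2. Most rows are above 0 (red) at 8 months and below 0 (blue) at 2 months, and Ptgds exceeds all 8 macrophage markers on each 8-month array except Fcgr1 on replicates 1 and 4.

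Lists of markers of other cell types, among them thymocytes, lung and reproductive tract, differed from each other. Whether the pools held tissue from outside the heart was not tested. Of 7 mesothelial and epicardial markers, 2 were above 0 at 8 months and 2 at 2 months, with medians of -0.081 and -0.21. Krt8, a keratin, met the size rule at 2 months at 1.45 ± 0.49 and was at -0.07 ± 0.61 at 8 months. Endothelial markers were below 0 at both ages, 8 of 8 at 8 months and 6 of 8 at 2 months, with medians of -0.31 and -0.32. Of 5 glial and Schwann cell markers, 2 were above 0 at 8 months and 3 at 2 months, with medians of -0.052 and 0.17. Of 6 fibroblast markers, 3 were above 0 at 8 months and 1 at 2 months, with medians of 0.13 and -0.14, and 2 had means above 0 at 8 months and below 0 at 2 months. Lum, the matrix protein lumican, met the size rule at 8 months at 0.67 ± 0.34 and was at -0.12 ± 0.29 at 2 months. Smooth muscle and pericyte markers had medians of -0.15 and -0.21 over 6 genes, 3 of them above 0 at 2 months. Pdgfrb met the size rule at 2 months at -0.62 ± 0.46.

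Mast cell markers had medians of -0.18 at 8 months and 0.12 at 2 months over 5 genes, 2 of them above 0 at 8 months. Kit met the size rule at 8 months at -1.13 ± 0.21 (n = 3 arrays). Of 3 platelet markers, 2 were above 0 at 8 months and none at 2 months, with medians of 0.10 and -0.56, and Ppbp, a platelet chemokine precursor, was at 0.28 ± 0.89 and -0.95 ± 0.11. Thymocyte markers ran against Ptgds at 2 months: all 8 met the size rule there with the female pool higher, and their median was 0.26 at 8 months and 3.18 at 2 months. Of 9 heart muscle markers, 2 were above 0 at 8 months and 4 at 2 months, with medians of -0.36 and -0.02. Endocardial, fat, atrial, lung and reproductive tract markers had medians of -0.10, -0.05, -0.20, 0.37 and 0.39 at 8 months and 0.01, 0.97, 0.27, 1.07 and 0.18 at 2 months, over 2 to 4 genes each. Single fat and lung markers were far from 0. Of 4 fat markers, 3 were above 0 at 2 months, and Ucp1 and Cidec met the size rule there at 2.99 ± 0.21 and 1.71 ± 0.23. Of 3 lung markers, Sftpc met it at both ages, at 3.12 ± 1.65 at 8 months and 1.76 ± 0.31 at 2 months. Sftpd and Scgb1a1 met it at 2 months, at 1.07 and 0.66. The part of any of these cell types in the Ptgds ratio was not tested, and of the 5 listed sex hormone receptor genes none had a named probe.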

How the data were processed

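The deposited table holds log10 ratios of Cy5 over Cy3, 1 per probe and array. Per the labels, the authors analysed the images with Agilent Feature Extraction 7.1.1, and whether they normalized further was not given in the sources used here. An exact 0 was treated as no measurement. Values were multiplied onto the log2 scale and signed by the dye of the female pool. Xist, Eif2s3y and Kdm5d had the sign of their sex on every array, but sex-linked probes had also set the direction of the ratio. Gene names came from the array's annotation, and RefSeq (GRCm38.p6) gave the current symbol for 6600 of 6671 probes. Probes of 1 symbol were averaged. A row needed 3 of 4 arrays at each age with both dye orientations (7812 rows), and the 2 orientations were averaged. The arrays of an age count as 1 replicate, except in the alternative fit with the replicate number as a block, so single ages have no test. Over both ages limma 3.58.1 in R 4.3.3 was used (two-sided, Benjamini-Hochberg, called below 0.05, n = 2 pool pairs). It was not run as a test on the prostaglandin family. Members, lists and tests were chosen with earlier results of these data known. Family genes, pathway genes past the size rule or among the 4 largest at an age, lipocalins and the 5 genes most like Ptgds were named by rule. Faah, Pla2g4a, Hpgd, Slco2a1, Ltc4s, Lta4h, Ltb4r1, Ephx2, the reversing rows and single markers were picked after their values were seen. Fits and the size rule were also run on simulated data with 1 noise level for all rows and no trend along the feature number. Those runs cannot tell how they behave on arrays that carry a trend. Alternatives covered left-out arrays, centring, scaling, the trend, zeros, filters, probes and the fold.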

Additional observations from a re-analysis of the deposited data

Results flagged for a closer look

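Of 75 genes and probes examined, 12 had opposite signs on all arrays of the 2 ages, without a test of the difference, as did 123 of 7812 rows. By the difference of female over male, 8 minus 2 months (log2), they were Ptgds at 2.31, Ccl7 at 2.02, Fcgr1 at 1.72, Lilrb4a at 1.45, Arntl at 1.43, Thbs1 at 1.32, Slc4a1 at 1.04, Alox5ap at 1.02, Mrc1 at 0.81, Adgre1 at 0.79, Cd68 at 0.78 and Bcl11b at -2.53. Ccl7, Arntl, Thbs1 and Slc4a1 had been chosen for their likeness to Ptgds, and Ccl7, Fcgr1, Lilrb4a and Bcl11b for reversing. Fcgr1, Mrc1, Adgre1 and Cd68 are macrophage markers. Not every marker list was among the 75, so the directions of the 12 reflect what was examined. Fabp4, Nppa and Tpsb2, from other marker lists, were below 0 on all arrays at 8 months and above 0 on all at 2 months. Faah, Foxn1 and E230024E03Rik, with 3 arrays at 8 months, also had opposite signs on all measured arrays and are not among the 12.

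4 values stood far from the other arrays of their group, out of 144 groups of 4 arrays examined, where chance gives about 1 in 20. Of these, 3 were on replicate 2 at 8 months, an array with a trend along the feature number: Pnpla8, a phospholipase of mitochondria, at 1.04, Abcc4, a transporter that exports prostaglandins, at 1.05, and Ltb4r1 at -1.51. The other was C1qb, of the complement, on replicate 4 at 2 months, at 0.059.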

How the results depend on the processing

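The Ptgds ratio kept its sign under every alternative run. Ptgds was selected for its reversal and had 1 sign on all arrays of each age, so leaving out arrays could not change that sign. The alternatives on zeros and on probes could not move the ratio, since Ptgds had 1 probe with a value on every array. At 8 months 10 of 11 alternatives moved it by less than the SD of the arrays, and scaling the arrays to 1 spread gave 1.11 at 8 months and 1.86 for the age difference. Leaving out 1 array gave 1.45 to 1.72 at 8 months, -0.74 to -0.70 at 2 months and 2.17 to 2.44 for the difference. Removing the trend and using replicates 3 and 4 alone, chosen after seeing the data, gave 1.47 and 2.20. At 2-fold, 0 family genes met the size rule at 2 months. At 8 months 0 to 2 of the other pathway genes met the 1.5-fold rule when 1 array was left out, and 1 with replicates 3 and 4 alone. The set of arrays that must share 1 sign is then smaller, and more rows met the rule in all. Without replicates 1, 2, 3 and 4 in turn these were 378 of 7859, 376 of 7896, 533 of 7765 and 468 of 7678 rows. With replicates 3 and 4 alone they were 260 of 7798, against 233 of 7812 with all arrays. Same-numbered arrays of the 2 ages share a dye orientation, and their deviations correlated at -0.13, -0.10, 0.56 and 0.51 for replicates 1 to 4. A pairing by number and the shared dye orientation cannot be told apart in these values. With the replicate number as a block the Ptgds difference was 2.31, a value that this alternative could not change. The block fit took single arrays as replicates, and limma called 0 of the 39 pathway genes and 21 of 7812 rows. The lack of intensities and the number of arrays limit the precision.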
